A study of Mus musculus with 3 samples.

Results

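Iron storage and oxidant defence was followed through 9 genes, all of which were among the 18478 genes of the table. The 9 were chosen by name: Ftl1, Fth1, Tfrc, Trf, Slc40a1, Hmox1, Gpx4, Srxn1 and Nqo1. Single-cell RNA came from retinas of mice carrying Glast-CreERT2, Yap5SA and an R26R-tdTomato reporter, each with 1 transgenic copy. With tamoxifen the recombinase turns on Yap5SA, a form of YAP that Hippo kinases do not restrain, in cells that use the Glast promoter. This promoter is active in Müller glia, the supporting glia of the retina, and also in retinal astrocytes. The mice then received N-methyl-D-aspartate (NMDA), which kills inner retinal neurons, and tdTomato+ cells were sorted 2 days later. All 3 libraries, called runs in the labels, had this treatment, and no control library was among them, so every comparison below is between cells of the same libraries. The labels do not say that the runs were separate animals. The p-values rest on how far the differences between classes vary from run to run, and that spread may be technical.

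Of 24695 cells, 24672 passed the cell filters. Cells with at least 5 UMIs (unique transcript counts) of Igfbp2 per 10000 were called Igfbp2-high, and cells with under 1 were called Igfbp2-low. Cells with at least 2 UMIs of Top2a, Mki67, Cdk1 and Ccnb1 together were called cycling, and cells with 0 were called non-cycling. This gave 4961 Igfbp2-high cycling, 1124 Igfbp2-high non-cycling, 263 Igfbp2-low cycling and 13025 Igfbp2-low non-cycling cells. A further 62 cells with at least 10 UMIs of C1qa, C1qb and C1qc per 10000 were called microglia, the resident macrophages of the retina, and 5237 cells fell in no class. Every level below is UMIs per 10000 UMIs, from counts summed over the cells of a class in each run. These levels are from the ends of transcripts, so they were compared between classes. The ratio of the ferritin chains below was likewise compared between classes, and it does not say which chain is the more abundant.

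Cells must hold iron in a safe form, because free ferrous iron turns peroxides into radicals. Transferrin (Trf) carries iron, the transferrin receptor (Tfrc) takes it up, ferritin made of light (Ftl1) and heavy (Fth1) chains stores it, and ferroportin (Slc40a1) exports it. Iron regulatory proteins bind a short hairpin, the iron-responsive element, in these messages when iron is scarce: in the 5′ UTR the hairpin then holds back translation, and in the 3′ UTR of Tfrc it protects the message. Heme oxygenase 1 (Hmox1) breaks heme down and frees its iron, Gpx4 reduces lipid peroxides and so holds off ferroptosis, Srxn1 repairs over-oxidised peroxiredoxins, and Nqo1 reduces quinones. Hmox1, Srxn1, Nqo1 and both ferritin chains are known targets of the transcription factor NRF2.

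The hairpins are shown because they set 4 members apart as messages that iron can control after transcription, which UMI counts of ferritin or ferroportin do not measure. They were found in GENCODE M21 transcripts on mm10 as an unpaired C, a 5-base stem, a 6-base loop that starts with CAGTG, and 5 bases that pair back to the stem (G with T allowed), read on the transcript strand. Each site is 27 bases long, written 5′ to 3′, and the capitals mark the loop. The Ftl1 site lies at chr7:45459780-45459806 (minus strand), in the 5′ UTR in exon 1 of 4. The Fth1 site lies at chr19:9982733-9982759 (plus strand), in the 5′ UTR in exon 1 of 4, and the Slc40a1 site at chr1:45925466-45925492 (minus strand), in the 5′ UTR in exon 1 of 8. The 4 Tfrc sites lie in the 3′ UTR in exon 19 of 19 on the plus strand, at chr16:32631220-32631246, chr16:32631599-32631625, chr16:32631664-32631690 and chr16:32631711-32631737.
Ftl1: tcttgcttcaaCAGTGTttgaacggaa
Fth1: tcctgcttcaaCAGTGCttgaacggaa
Slc40a1: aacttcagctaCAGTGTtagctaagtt
Tfrc, site 1: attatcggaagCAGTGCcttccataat
Tfrc, site 2: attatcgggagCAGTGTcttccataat
Tfrc, site 3: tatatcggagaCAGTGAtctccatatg
Tfrc, site 4: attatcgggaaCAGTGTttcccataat
The same search matched the 5′ UTR of 31 of 20883 genes (0.148%) and the 3′ UTR of 129 of 21011 genes (0.614%). It matched no UTR of Trf, Hmox1, Gpx4, Srxn1 or Nqo1, which says only that these letters are not there.

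The runs held 94858762, 122888236 and 97032672 UMIs in 7670, 8802 and 8223 cells. Median UMIs per cell were 22231 in Igfbp2-high cycling, 14177 in Igfbp2-high non-cycling, 13198 in Igfbp2-low cycling, 9114 in Igfbp2-low non-cycling cells and 15571.5 in microglia. All 12 Müller glia markers were detected in each of the 4 Igfbp2 classes. Their summed level per run was 97.4 to 113 in Igfbp2-high cycling, 159 to 180 in Igfbp2-high non-cycling, 168 to 243 in Igfbp2-low cycling and 284 to 322 in Igfbp2-low non-cycling cells. The 12 microglial markers summed to 162 to 228 in microglia and to at most 1.03 in those classes. These markers include C1qa, C1qb and C1qc, which set the class, so part of this gap follows from the rule. The 12 Müller glia markers summed to 88.6 to 155 in microglia, so the microglia also held Müller glia transcripts. The 6 macrophage markers in the table summed there to 50.2 to 64.7, against at most 0.126 in the Igfbp2 classes. The part of doublets, free RNA or other macrophages in these cells was not tested. Runs 1 and 2, 1 and 3, and 2 and 3 shared 95, 83 and 108 cell barcodes.

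One class was not uniform. Cells with at least 3 UMIs of the astrocyte markers Pax2, Pdgfra and S100b together made up 170 of the 1124 Igfbp2-high non-cycling cells (15.1%). The same limit took in 0.625% of Igfbp2-high cycling, 1.90% of Igfbp2-low cycling and 0.453% of Igfbp2-low non-cycling cells. The 6 listed astrocyte markers, none at 0 over the 3 runs, summed to 72.6 to 99.9 in the 170 cells, against 1.58 to 2.72 in the other Igfbp2-high non-cycling cells. These markers include Pax2, Pdgfra and S100b, which picked the 170 cells, so part of this gap follows from the limit. The 12 Müller glia markers summed to 200 to 249 in the 170 cells, against 150 to 171 in the other cells of the class. Rgs5, listed as a pericyte marker, was at 21.3 ± 3.04 in the 170 cells (SD, n = 3 runs), with Kcnj8 and Cspg4 at 0. The authors kept none of the 170 in their own table of 13511 cells. These astrocyte-marker cells were not given a cell type name, and the limit that sets them apart was chosen after the data were seen. Because they move with several members, results of the members and counts of the lists for the Igfbp2-high non-cycling class are given with and without them. The search below for genes with patterns like those of the members used every cell only.

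The astrocyte-marker cells carried 13.9% of all UMIs of the Igfbp2-high non-cycling class but 76.7% of its Trf UMIs (71.7%, 77.9% and 86.6% in runs 1, 2 and 3). They also carried 42.4% of its Tfrc, 39.7% of its Nqo1 and 22.3% of its Fth1 UMIs, and 4.63% of its Ftl1 UMIs. Trf in them was at 44.9, 31.5 and 22.7 in runs 1, 2 and 3, against 2.36, 1.49 and 0.690 in the other cells of the class. The plot of member levels shows both versions of the class.

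**Figure D1:**
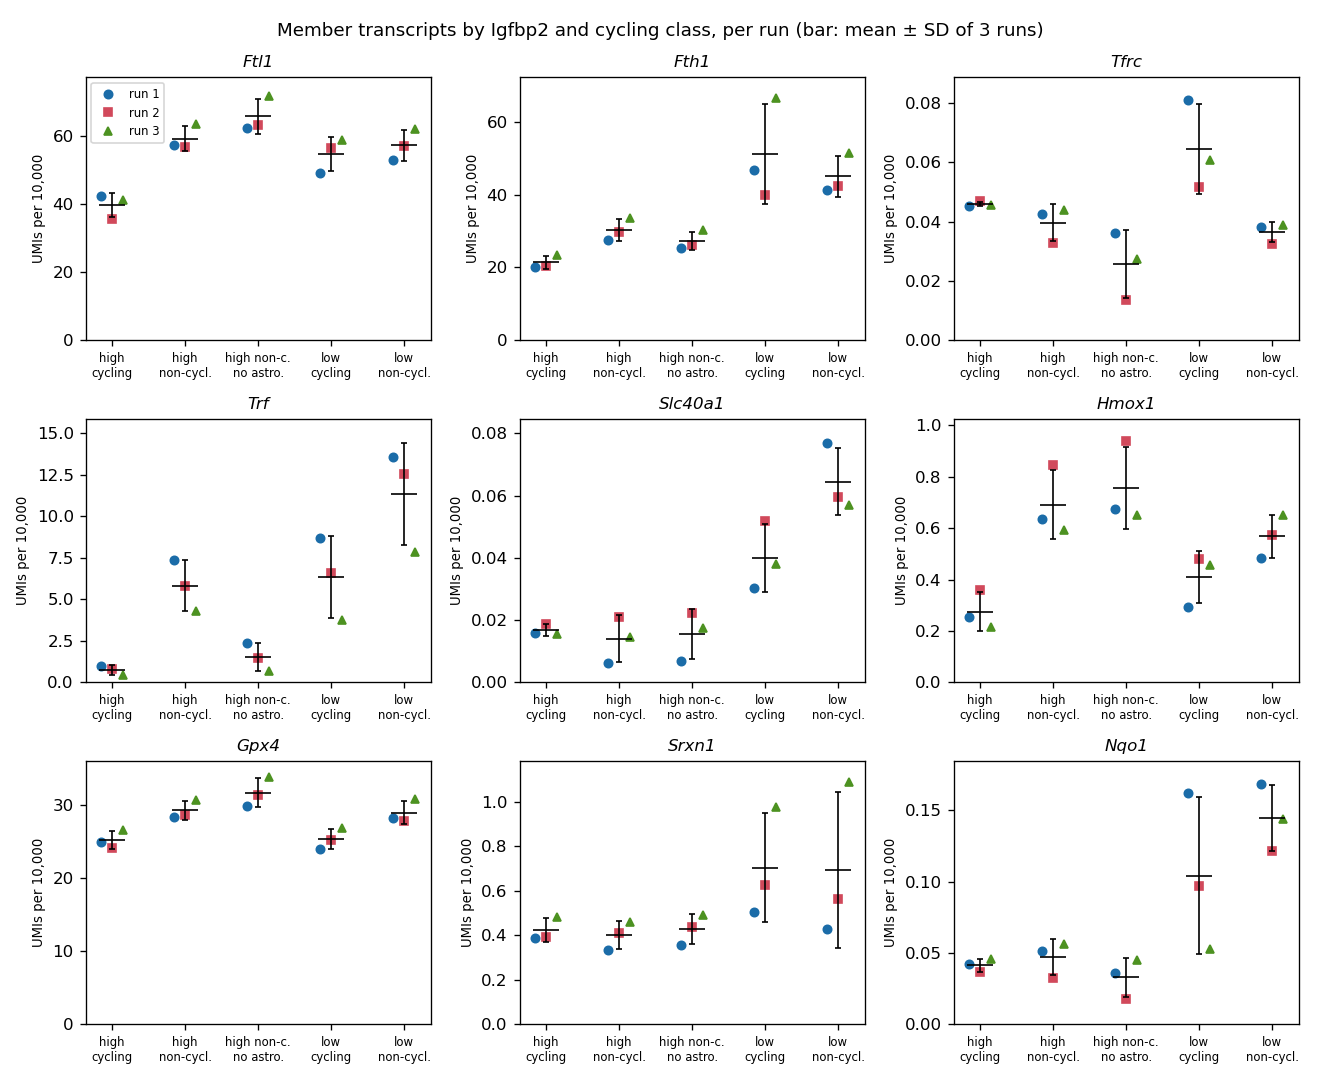
Level of each member in UMIs per 10000 (y axis, from 0) in 5 sets of cells (x axis), with 1 point per run and bars for mean ± SD of 3 runs. Trf is at 4.31 to 7.36 in the whole Igfbp2-high non-cycling class and at 0.690 to 2.36 without the astrocyte-marker cells, while Ftl1 and Gpx4 are higher without them.

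Igfbp2-high against Igfbp2-low cells outside division were compared first. With every cell of the classes, 5 of the 9 members fell and none rose (edgeR adjusted p under 0.05). In this comparison 59.8% of the 14115 genes tested were called, 29.0% higher and 30.8% lower, so 5 of 9 is close to the share of all genes. The median log2 change was -0.52 over the members and -0.04 over all genes tested. Without the astrocyte-marker cells, 3 members rose and 5 fell, where 60.6% of 13958 genes were called, 29.3% higher and 31.3% lower, and the members' median was -0.53 beside -0.07 for all genes.

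Fth1, the ferritin chain that oxidises iron for storage, was at 27.6, 29.7 and 33.5 in Igfbp2-high non-cycling cells, against 41.3, 42.4 and 51.4 in Igfbp2-low non-cycling cells. The groups do not overlap. Fth1 fell by 0.52 ± 0.09 on the log2 scale (SE, edgeR adjusted p = 7.81e-05), and by 0.62 ± 0.09 without the astrocyte-marker cells (edgeR adjusted p = 8.30e-06). Ftl1, the light chain, was at 57.2, 56.8 and 63.3 in Igfbp2-high cells, against 52.9, 57.0 and 62.0 in Igfbp2-low cells. These overlap, and the log2 change of 0.09 ± 0.08 did not pass the test (edgeR adjusted p = 0.318). Without the astrocyte-marker cells Ftl1 was at 62.2, 63.2 and 71.7 in Igfbp2-high cells, above Igfbp2-low cells in each run, and rose by 0.29 ± 0.08 (edgeR adjusted p = 0.00359). As UMIs per cell, where the median of all genes shifted to 0.52, Fth1 changed by 0.05 (edgeR adjusted p = 0.738), so its fall is relative to the other transcripts of the cell. With each cell thinned to 3500 UMIs and without the astrocyte-marker cells, the Ftl1 change was 0.07 (edgeR adjusted p = 0.384). For this the classes were set anew on the thinned counts. The Igfbp2-high non-cycling class then held 750, 610 and 554 cells in runs 1, 2 and 3, against 388, 279 and 287 before, so the cells differ too.

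The balance of the ferritin chains differed between the classes. The ratio of Ftl1 to Fth1 UMIs was 2.44, 2.41 and 2.37 in Igfbp2-high non-cycling cells without astrocyte markers, against 1.28, 1.35 and 1.21 in Igfbp2-low non-cycling cells. With every cell of the class it averaged 1.96 ± 0.10, against 1.28 ± 0.07 in Igfbp2-low cells (SD, n = 3 runs each). It averaged 1.86 ± 0.20 in Igfbp2-high cycling cells, against 1.11 ± 0.27 in Igfbp2-low cycling cells. In the astrocyte-marker cells of the Igfbp2-high class it was 0.408 ± 0.04. The ratio was not tested as such, and near-identical copies of both ferritin genes exist in the genome, so the split of reads between gene and copy is uncertain. The listed copy Gm10116, which resembles Ftl1, held 60026 UMIs beside 1614361 of Ftl1.

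**Figure D2:**
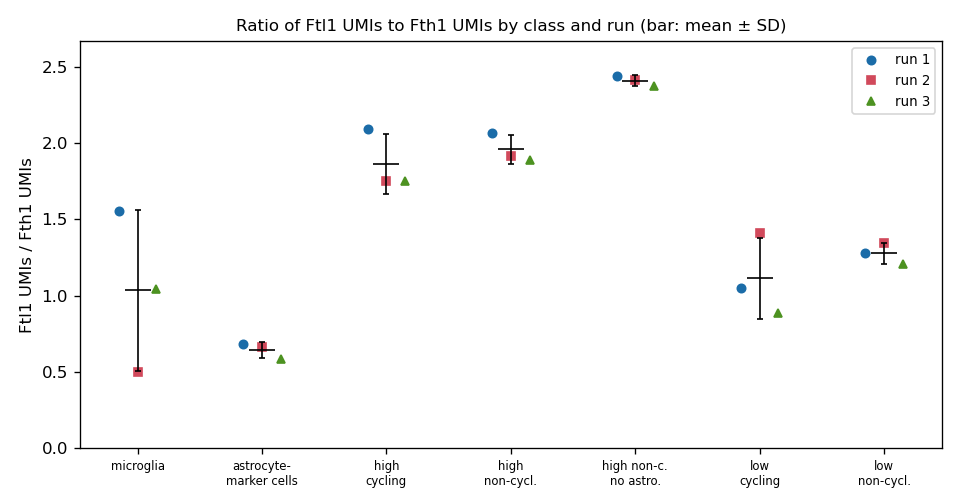
Ratio of Ftl1 UMIs to Fth1 UMIs (y axis, from 0) in microglia, all 330 astrocyte-marker cells and the Igfbp2 classes (x axis), with 1 point per run and bars for mean ± SD of 3 runs. Both Igfbp2-high classes lie at 1.75 or above in every run, and both Igfbp2-low classes lie at 1.41 or below.

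Trf was the member whose value the astrocyte-marker cells moved most. It was at 7.36, 5.78 and 4.31 in Igfbp2-high non-cycling cells, against 13.6, 12.5 and 7.83 in Igfbp2-low non-cycling cells, and fell by 0.91 ± 0.09 (edgeR adjusted p = 1.83e-07). Every Igfbp2-high value is below every Igfbp2-low value. Without the astrocyte-marker cells the fall was 2.90 ± 0.12 on the log2 scale (edgeR adjusted p = 1.54e-12). Shares of cells with a Trf UMI were counted after thinning to 3500 UMIs, in the classes set before thinning. Of Igfbp2-high non-cycling cells without astrocyte markers 23.3% held a Trf UMI, against 73.0% of Igfbp2-low non-cycling cells. In Igfbp2-high cycling cells 14.1% did, and in microglia 45.0%, 33.3% and 14.3% of 40, 15 and 7 cells did in runs 1, 2 and 3, all at that depth. The part of free RNA in these shares was not tested.

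Slc40a1, the exporter, was a rare message: 4, 11 and 7 UMIs in Igfbp2-high non-cycling cells (0.0061, 0.0211 and 0.0146 per 10000), against 277, 281 and 241 UMIs in Igfbp2-low non-cycling cells (0.0769, 0.0596 and 0.0570 per 10000). The groups do not overlap. It fell by 2.22 ± 0.29 on the log2 scale (edgeR adjusted p = 4.98e-06), and by 2.01 ± 0.30 without the astrocyte-marker cells (edgeR adjusted p = 1.65e-05). Tfrc, the uptake receptor, was at 0.0426, 0.0327 and 0.0439 in Igfbp2-high cells, against 0.0383, 0.0326 and 0.0388 in Igfbp2-low cells. Its log2 change of 0.17 ± 0.18 did not pass the test (edgeR adjusted p = 0.445), nor did the -0.38 ± 0.25 without the astrocyte-marker cells (edgeR adjusted p = 0.201).

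Among the oxidant defence members, Nqo1 was at 0.0517, 0.0327 and 0.0564 in Igfbp2-high non-cycling cells, against 0.168, 0.122 and 0.144 in Igfbp2-low non-cycling cells. Nqo1 fell by 1.58 ± 0.17 (edgeR adjusted p = 5.20e-07), and by 2.04 ± 0.21 without the astrocyte-marker cells (edgeR adjusted p = 1.42e-07), with no overlap between the groups. Srxn1 was at 0.333, 0.409 and 0.460 in Igfbp2-high cells, against 0.428, 0.565 and 1.09 in Igfbp2-low cells. Srxn1 was lower within each run, although the groups overlap across runs, and fell by 0.67 ± 0.16 (edgeR adjusted p = 0.00195), or by 0.53 ± 0.16 without the astrocyte-marker cells (edgeR adjusted p = 0.00906). Without the run block, where run 3's high Igfbp2-low level enters the spread, its change of -0.76 did not pass (edgeR adjusted p = 0.0618).

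Hmox1 was at 0.636, 0.844 and 0.593 in Igfbp2-high non-cycling cells, against 0.482, 0.572 and 0.651 in Igfbp2-low non-cycling cells. It was higher in 2 of 3 runs and lower in run 3, and its log2 change of 0.32 ± 0.13 just missed the threshold (edgeR adjusted p = 0.0515). Hmox1 rose by 0.49 ± 0.13 without the astrocyte-marker cells (edgeR adjusted p = 0.00444), and by 0.58 with every cell but without run 3 (edgeR adjusted p = 3.22e-05). Without the astrocyte-marker cells Hmox1 was at 0.676, 0.938 and 0.650 in Igfbp2-high cells, against 0.484, 0.573 and 0.653 in Igfbp2-low cells. Run 3 thus showed no rise in that version either. Gpx4 was at 28.4, 28.6 and 30.7 in Igfbp2-high cells, against 28.3, 27.8 and 30.7 in Igfbp2-low cells. These levels overlap, and its change was 0.06 ± 0.06 (edgeR adjusted p = 0.359). Without the astrocyte-marker cells Gpx4 rose by 0.22 ± 0.06 (edgeR adjusted p = 0.00267). After thinning as well, with the classes set anew on the thinned counts, the change was 0.04 (edgeR adjusted p = 0.551).

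**Figure D3:**
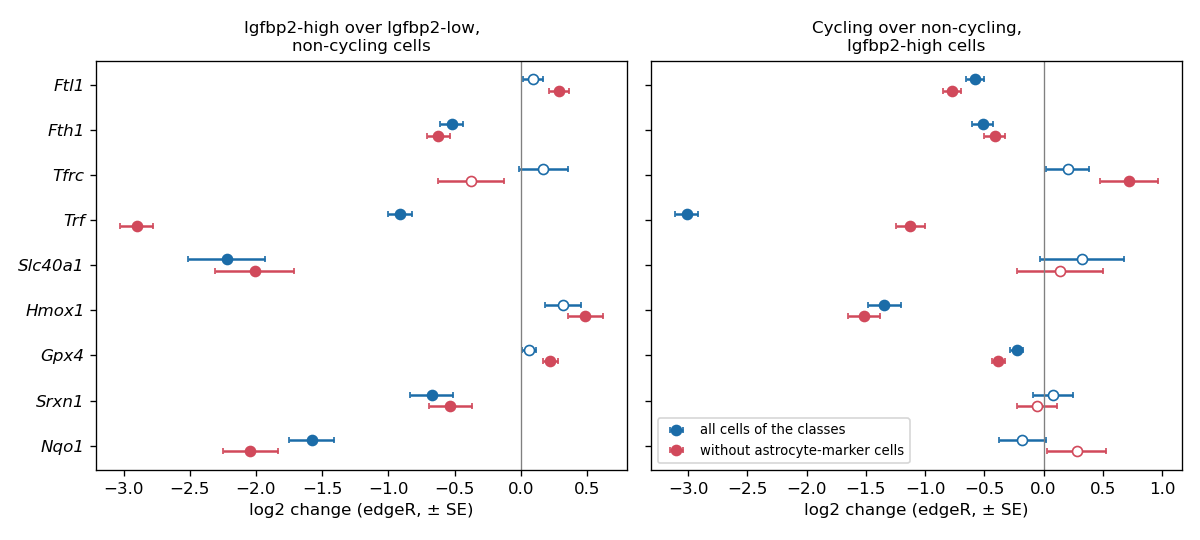
Log2 change of each member (x axis, ± SE) for Igfbp2-high over Igfbp2-low non-cycling cells (left) and cycling over non-cycling Igfbp2-high cells (right). Blue points use every cell, red points leave out the astrocyte-marker cells, and filled points passed an edgeR adjusted p of 0.05. Trf moves most, to -2.90 on the left and -1.13 on the right.

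Along finer steps of Igfbp2, non-cycling cells without astrocyte markers were split at 1, 5, 10, 20 and 40 Igfbp2 UMIs per 10000, with 173 to 12966 cells in a step. The step of 1 to 5 held 2371 cells that were in no class. The other steps reuse the cells of the classes, so they describe the same difference, and no step was tested. From the lowest step to the highest, mean Fth1 was 45.0, 42.1, 33.9, 30.0, 25.3 and 22.7. It was lower at each step in every run. Mean Trf was 11.3, 11.4, 3.99, 1.99, 0.820 and 0.523, and the first lower step was that of 5 to 10. Ftl1 was higher from the 5 to 10 step on, with means of 57.3, 56.3, 65.4, 66.7, 67.7 and 61.9.

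**Figure D4:**
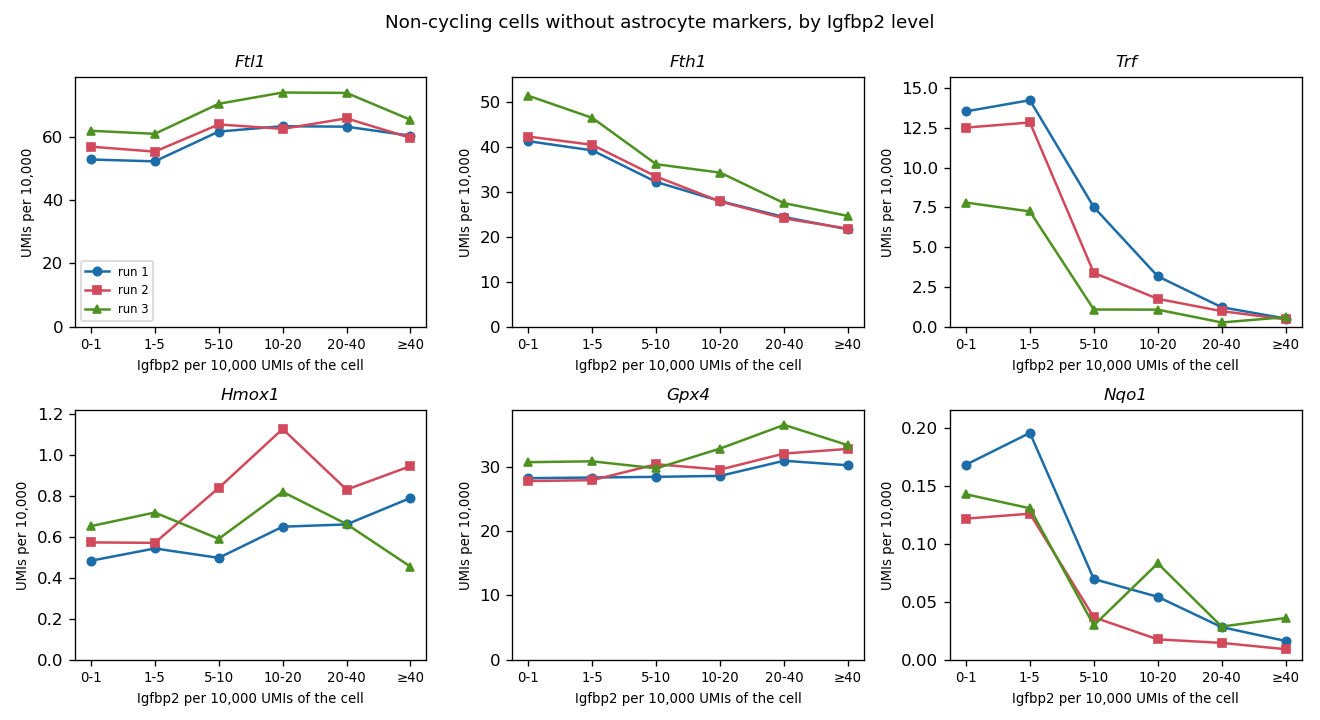
Level of 6 members in UMIs per 10000 (y axis, from 0) in non-cycling cells without astrocyte markers, by Igfbp2 per 10000 UMIs (x axis, low to high), with 1 line per run. Fth1 is lower at every step, Trf and Nqo1 are lower from the 5 to 10 step on, and Gpx4 stays between 27.8 and 36.6.

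Cycling cells were compared in the same way. Among them 6 of 9 members fell in Igfbp2-high cells and none rose, where 43.1% of 14115 genes were called, 24.6% higher and 18.5% lower. The median log2 change was -0.61 over the members and 0.06 over all genes tested. Fth1 was at 20.3, 20.4 and 23.5 in Igfbp2-high cycling cells, against 46.8, 39.97 and 66.4 in Igfbp2-low cycling cells, and fell by 1.15 ± 0.09 (edgeR adjusted p = 3.65e-08). Trf was at 1.01, 0.810 and 0.427 in Igfbp2-high cycling cells, against 8.69, 6.60 and 3.77 in Igfbp2-low cycling cells, and fell by 2.996 ± 0.10 (edgeR adjusted p = 4.47e-12). Neither gene's groups overlap. Ftl1 was at 42.3, 35.6 and 41.2 in Igfbp2-high cycling cells, against 49.0, 56.3 and 58.7 in Igfbp2-low cycling cells, and fell by 0.37 ± 0.08 (edgeR adjusted p = 0.000953).

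The rarer members Nqo1, Srxn1 and Slc40a1 also fell. Nqo1 fell by 1.19 ± 0.28 (edgeR adjusted p = 0.0027), to 0.042, 0.0365 and 0.0458 in Igfbp2-high cycling cells, against 0.162, 0.097 and 0.053 in Igfbp2-low cycling cells. Srxn1 fell by 0.61 ± 0.21 (edgeR adjusted p = 0.0266) and Slc40a1 fell by 1.21 ± 0.45 (edgeR adjusted p = 0.0388). Slc40a1 rests on only 3, 8 and 5 UMIs in Igfbp2-low cycling cells. Hmox1 (-0.51 ± 0.22, edgeR adjusted p = 0.0792), Gpx4 (0.08 ± 0.06, edgeR adjusted p = 0.277) and Tfrc (-0.36 ± 0.27, edgeR adjusted p = 0.378) did not pass. Without run 2, Ftl1 (-0.26, edgeR adjusted p = 0.0787), Srxn1 (-0.63, edgeR adjusted p = 0.0734) and Slc40a1 (-1.07, edgeR adjusted p = 0.201) no longer passed. The Nqo1 call was lost when run 1 was left out (-0.89, edgeR adjusted p = 0.0783), and that of Slc40a1 without run 3 (-1.21, edgeR adjusted p = 0.12) or without the astrocyte-marker cells (-1.15, edgeR adjusted p = 0.0562). Without those cells 5 members fell, where 43.2% of 13958 genes were called, 24.7% higher and 18.5% lower. Without the run block the Srxn1 change of -0.67 did not pass (edgeR adjusted p = 0.142).

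Cycling against non-cycling cells were then compared within each Igfbp2 class. In Igfbp2-high cells 5 of 9 members fell and none rose, where 50.5% of 14115 genes were called, 25.3% higher and 25.2% lower. Median log2 changes were -0.23 over the members and -0.02 over all genes. Hmox1 was at 0.253, 0.359 and 0.215 in cycling cells, against 0.636, 0.844 and 0.593 in non-cycling cells, and fell by 1.35 ± 0.14 (edgeR adjusted p = 4.89e-07). The groups do not overlap, and without the astrocyte-marker cells the fall was 1.51 ± 0.14 (edgeR adjusted p = 8.15e-08). Ftl1 fell by 0.58 ± 0.08 (edgeR adjusted p = 7.89e-06), to 35.6 to 42.3 in cycling cells, against 56.8 to 63.3 in non-cycling cells, and by 0.77 ± 0.08 without the astrocyte-marker cells (edgeR adjusted p = 2.64e-07). Fth1 fell by 0.51 ± 0.09 (edgeR adjusted p = 0.000125), to 20.3 to 23.5 in cycling cells, against 27.6 to 33.5 in non-cycling cells, and by 0.41 ± 0.09 without the astrocyte-marker cells (edgeR adjusted p = 0.000917).

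Trf fell by 3.01 ± 0.10 in cycling Igfbp2-high cells (edgeR adjusted p = 1.88e-13), but by 1.13 ± 0.12 without the astrocyte-marker cells (edgeR adjusted p = 7.05e-07). Gpx4 was at 24.9, 24.1 and 26.5 in cycling cells, against 28.4, 28.6 and 30.7 in non-cycling cells, and fell by 0.23 ± 0.06 (edgeR adjusted p = 0.00247), or by 0.38 ± 0.06 without the astrocyte-marker cells (edgeR adjusted p = 2.71e-05). Tfrc was at 0.0454, 0.0468 and 0.0458 in cycling cells, against 0.0362, 0.0135 and 0.0275 in non-cycling cells without astrocyte markers. On those cells Tfrc rose by 0.72 ± 0.24 (edgeR adjusted p = 0.022), on 21, 6 and 11 UMIs in the non-cycling cells. With every cell the change was 0.20 ± 0.18 (edgeR adjusted p = 0.368). The Gpx4 call was lost without run 2 (-0.20, edgeR adjusted p = 0.107) and without the run block (-0.23, edgeR adjusted p = 0.0561). Slc40a1, Srxn1 and Nqo1 did not pass in either version. With astrocyte-marker cells left out, 1 member rose and 5 fell, where 44.7% of 13958 genes were called, 22.4% higher and 22.3% lower. As UMIs per cell the median of all genes shifted to 0.59, and Gpx4 then rose by 0.38 (edgeR adjusted p = 0.000684), while Ftl1 changed by 0.03 and Fth1 by 0.10, so their falls are relative to the other transcripts of larger libraries.

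In Igfbp2-low cells only Trf and Gpx4 of the 9 members were called between cycling and non-cycling cells, both lower, where 24.4% of 14115 genes were called (12.8% higher, 11.6% lower). Trf was at 8.69, 6.60 and 3.77 in cycling cells, against 13.6, 12.5 and 7.83 in non-cycling cells. It was lower within each run and fell by 0.93 ± 0.09 (edgeR adjusted p = 1.38e-06). Gpx4 was at 24.0, 25.2 and 26.8 in cycling cells, against 28.3, 27.8 and 30.7 in non-cycling cells, and fell by 0.24 ± 0.06 (edgeR adjusted p = 0.00376). The other members changed by -0.68 (Slc40a1) to 0.73 (Tfrc), with edgeR adjusted p from 0.0820 to 0.963. Without run 2 the Gpx4 call was lost (-0.26, edgeR adjusted p = 0.073), and without the run block neither gene passed (-0.90 for Trf, edgeR adjusted p = 0.0918, and -0.24 for Gpx4, edgeR adjusted p = 0.0734). Hmox1 passed without run 3 (-0.49, edgeR adjusted p = 0.0318). With astrocyte-marker cells left out, 2 members fell as well, where 24.8% of 13958 genes were called. As UMIs per cell, with every cell, the median of all genes shifted to 0.58. Gpx4 then rose by 0.40 (edgeR adjusted p = 0.000765), so its fall is relative to the other transcripts of larger libraries.

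Whether the Igfbp2 difference was itself another in cycling than in non-cycling cells was tested with an interaction term, for which 10.4% of 14115 genes were called, 4.96% higher and 5.46% lower. Of the members, 3 were called: the Igfbp2 difference was lower in cycling cells by 0.46 ± 0.11 for Ftl1 (edgeR adjusted p = 0.012), by 0.62 ± 0.13 for Fth1 (edgeR adjusted p = 0.00411) and by 2.08 ± 0.13 for Trf (edgeR adjusted p = 2.09e-07). Without the astrocyte-marker cells the Trf term was -0.18 ± 0.17 (edgeR adjusted p = 0.591), and in the cells that the authors kept it was 0.07 (edgeR adjusted p = 0.872). With the astrocyte-marker cells left out, the Ftl1 term was -0.65 ± 0.11 (edgeR adjusted p = 0.00108) and the Fth1 term -0.53 ± 0.12 (edgeR adjusted p = 0.0127). Hmox1 was called too in that version (-1.01 ± 0.26, edgeR adjusted p = 0.0219), where 8.53% of 13958 genes were, 3.82% higher and 4.71% lower. Cells were also thinned to 3500 UMIs and put into classes anew on the thinned counts. The Ftl1 term was then -0.13 (edgeR adjusted p = 0.492) and the Fth1 term -0.29 (edgeR adjusted p = 0.0989). Leaving out run 2 ended the Ftl1 call (-0.38, edgeR adjusted p = 0.207), and leaving out the run block ended both the Ftl1 (-0.46, edgeR adjusted p = 0.127) and Fth1 (-0.64, edgeR adjusted p = 0.177) calls.

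Microglia were set against Igfbp2-low non-cycling cells. Both ferritin chains and Hmox1 rose in microglia, and Trf, Gpx4, Srxn1 and Nqo1 fell. These 7 of 9 members compare with 33.8% of 13250 genes called, 13.9% higher and 19.8% lower. The median log2 change was -1.05 over the members and -0.37 over all genes. The class held 40, 15 and 7 cells in runs 1, 2 and 3, so its profiles rest on far fewer cells than the others.

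Ftl1 was at 235, 137 and 174 in microglia, against 52.9, 57.0 and 62.0 in Igfbp2-low non-cycling cells, and rose by 1.52 ± 0.35 (edgeR adjusted p = 0.00012). Fth1 was at 151, 275 and 166 in microglia, against 41.3, 42.4 and 51.4 in Igfbp2-low cells, and rose by 1.97 ± 0.36 (edgeR adjusted p = 4.68e-07). Hmox1 was at 2.32, 2.23 and 1.01 in microglia, against 0.482, 0.572 and 0.651 in Igfbp2-low cells, and rose by 1.83 ± 0.27 (edgeR adjusted p = 3.98e-10). No run of these 3 genes overlaps between the groups. The ratio of Ftl1 to Fth1 ranged from 0.499 in run 2 to 1.56 in run 1, so the balance of the chains was not shared by the microglia of the runs. Gpx4 was at 9.30, 12.1 and 7.20 in microglia, against 28.3, 27.8 and 30.7 in Igfbp2-low cells, and fell by 1.70 ± 0.31 (edgeR adjusted p = 5.92e-07).

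Trf was at 5.72, 2.62 and 0.503 in microglia, against 13.6, 12.5 and 7.83 in Igfbp2-low cells, and fell by 2.09 ± 0.31 (edgeR adjusted p = 4.51e-10). Srxn1 fell by 1.05 ± 0.34 (edgeR adjusted p = 0.00819), with 0.181, 0.420 and 0.168 in microglia, against 0.428, 0.565 and 1.09 in Igfbp2-low cells. Nqo1 had 1 UMI in all microglia, against 1787 UMIs in Igfbp2-low cells, and passed the test (edgeR adjusted p = 0.000569). The ratio of its share of all UMIs, microglia over Igfbp2-low cells, was 0.0645 (exact 95% interval 0.00163 to 0.360, counting error only). Slc40a1 had 2 UMIs in microglia, against 799 in Igfbp2-low cells, a ratio of 0.289 (exact 95% interval 0.0349 to 1.05), and did not pass (edgeR adjusted p = 0.153). Tfrc had 7, 5 and 0 UMIs in microglia (a count of 0 in run 3 allows up to 0.503 per 10000), and its change of 1.62 ± 0.71 did not pass (edgeR adjusted p = 0.0622). It passed once the 3 microglia that also held 3 or more astrocyte-marker UMIs were left out with the other such cells (1.76 ± 0.72, edgeR adjusted p = 0.0451), without run 3 (1.82, edgeR adjusted p = 0.0443), and without the run block (1.62, edgeR adjusted p = 0.0171). Leaving out the astrocyte-marker cells, 4 members rose and 4 fell, where 34.7% of 13220 genes were called, 14.4% higher and 20.2% lower. Without run 1, which held most microglia, Ftl1 (1.15, edgeR adjusted p = 0.192), Srxn1 (-1.03, edgeR adjusted p = 0.22) and Nqo1 (edgeR adjusted p = 0.153) did not pass, while Fth1, Hmox1, Trf and Gpx4 did. Without the run block the Srxn1 change of -1.43 missed the threshold (edgeR adjusted p = 0.052).

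**Figure D5:**
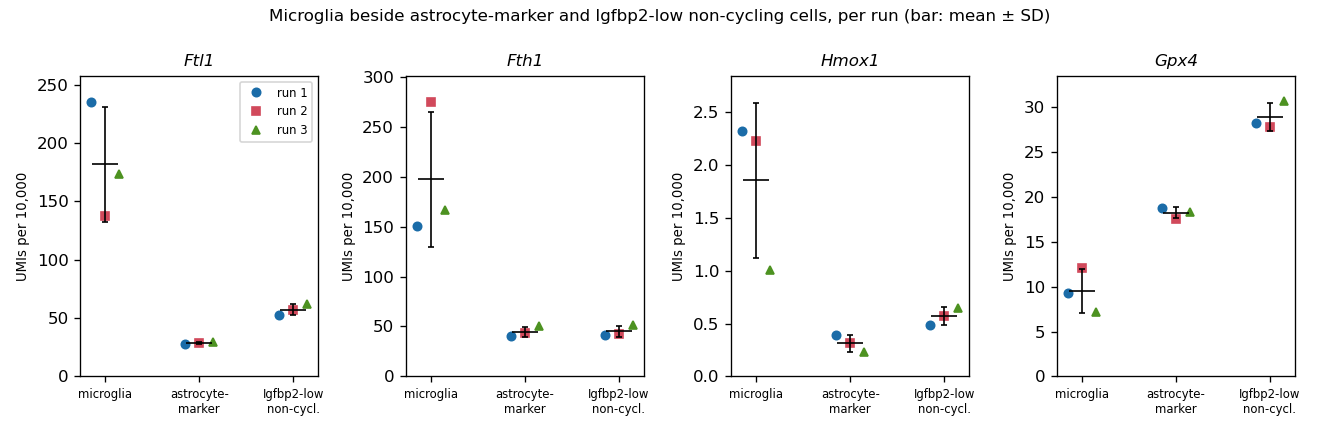
Level of 4 members in UMIs per 10000 (y axis, from 0) in microglia, all astrocyte-marker cells and Igfbp2-low non-cycling cells (x axis), with 1 point per run and bars for mean ± SD of 3 runs. Microglia are above both other sets for Ftl1, Fth1 and Hmox1 in every run and below both for Gpx4.

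Markers of other cells moved with some members. The 8 rod photoreceptor markers, none at 0 in any class, summed to 5.03 to 6.47 in Igfbp2-high cycling, 5.21 to 7.60 in Igfbp2-high non-cycling, 6.85 to 16.2 in Igfbp2-low cycling and 12.6 to 14.8 in Igfbp2-low non-cycling cells. Patterns were compared across the 12 Igfbp2 profiles with every cell of the classes, after subtracting run means. Among 2639 genes compared, those with patterns like that of Nqo1 included Prph2, a photoreceptor outer segment protein (Pearson r = 0.99), and Por (r = 0.99). In non-cycling cells rod transcripts differed in the same direction as Nqo1, Slc40a1, Fth1 and Trf, and their part in these results was not tested.

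By the same measure, Trf was most like Stat3 (r = 0.99), Nenf (r = 0.99) and Thrsp (r = 0.99), and Fth1 was most like Pold4 (r = 0.98), Id1 (r = 0.98) and Aig1 (r = 0.97). Ftl1 was most like Gng5 (r = 0.98), Hmox1 like Mgll (r = 0.97) and Gpx8 (r = 0.95), and Gpx4 like Selt (r = 0.97), itself a selenoprotein gene. The likeness was weaker for Slc40a1 (Gna13, r = 0.94), Srxn1 (Eif3f, r = 0.90) and Tfrc (Anapc11, r = 0.86). The 12 profiles share 3 libraries and 4 classes, so these are descriptions of the class pattern. They include the astrocyte-marker cells, and the part of those cells in the likeness was not tested.

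Other genes of iron handling were read from a list of 49 without the members, of which 43 were in the table and 37 were tested. In Igfbp2-high against Igfbp2-low non-cycling cells 12 rose and 14 fell, where 59.8% of all genes were called (29.0% higher, 30.8% lower). Leaving out astrocyte-marker cells, 11 rose and 17 fell, where 60.6% of all genes were called (29.3% higher, 31.3% lower). The list's median log2 change was 0.14 with every cell and -0.19 without those cells, beside -0.04 and -0.07 for all genes, so its sign turned. Steap1 and Steap2, of a family of metalloreductases, rose by 3.33 ± 0.14 (edgeR adjusted p = 3.02e-12) and 2.17 ± 0.07 (edgeR adjusted p = 2.44e-13), and without those cells by 3.57 ± 0.13 and 2.41 ± 0.08 (edgeR adjusted p = 2.20e-13 and 1.65e-14). Steap1 was at 1.02, 0.642 and 0.535 in Igfbp2-high non-cycling cells, against 0.113, 0.0596 and 0.0570 in Igfbp2-low non-cycling cells. Steap1 and Steap2 were also higher in Igfbp2-high cycling cells, by 1.80 ± 0.19 (edgeR adjusted p = 1.05e-06) and 1.63 ± 0.11 (edgeR adjusted p = 6.44e-09), where 7 genes of the list rose and 11 fell (all genes: 24.6% higher, 18.5% lower).

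Lcn2, a secreted protein that binds iron-carrying siderophores, turned direction with the astrocyte-marker cells. It was at 9.91, 15.2 and 13.8 in all Igfbp2-high non-cycling cells, against 0.539, 2.97 and 0.515 in Igfbp2-low non-cycling cells (log2 change 3.81 ± 0.34, edgeR adjusted p = 5.64e-08). Without those cells it averaged 0.327 ± 0.36 in Igfbp2-high cells, against 1.30 ± 1.47 in Igfbp2-low cells (SD, n = 3 runs each), and fell by 1.76 ± 0.34 (edgeR adjusted p = 0.000227). Ceruloplasmin (Cp), the ferroxidase that works with ferroportin, averaged 15.96 ± 2.21 in Igfbp2-high non-cycling cells, against 11.1 ± 2.45 in Igfbp2-low non-cycling cells, and 9.47 ± 1.53 in Igfbp2-high cells without astrocyte markers. In cycling against non-cycling Igfbp2-high cells Cp fell by 1.89 ± 0.08 (edgeR adjusted p = 1.30e-11), and by 1.22 ± 0.08 without the astrocyte-marker cells (edgeR adjusted p = 6.83e-10). In that comparison 12 genes of the list rose and 11 fell with every cell, and 9 rose and 12 fell without those cells. Of all genes 25.3% were higher and 25.2% lower with every cell, and 22.4% and 22.3% without them.

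Of 31 other listed NRF2 targets, all tested, 9 rose and 17 fell in Igfbp2-high non-cycling cells (median log2 change -0.32, beside -0.04 for all genes). In the version without astrocyte-marker cells the counts were again 9 and 17 (median -0.29, beside -0.07). Of all genes 59.8% and 60.6% were called. Those called moved in both directions: Txnrd1, thioredoxin reductase, rose by 2.13 ± 0.10 (edgeR adjusted p = 2.83e-11), and Gsta4, which conjugates lipid aldehydes to glutathione, fell by 1.48 ± 0.08 (edgeR adjusted p = 8.02e-11). Without those cells Txnrd1 changed by 2.35 ± 0.10 (edgeR adjusted p = 1.12e-12) and Gsta4 by -1.68 ± 0.08 (edgeR adjusted p = 9.48e-12). Txnrd1 was at 2.83, 2.72 and 2.60 in Igfbp2-high non-cycling cells, against 0.624, 0.694 and 0.616 in Igfbp2-low non-cycling cells. Me1, malic enzyme, which makes NADPH, rose by 1.61 ± 0.07 (edgeR adjusted p = 1.09e-11). Me1 averaged 0.473 ± 0.04 in all Igfbp2-high cells and 0.338 ± 0.04 without those cells, against 0.160 ± 0.01 in Igfbp2-low cells (SD, n = 3 runs each). In cycling cells 9 of the 31 rose and 14 fell with high Igfbp2 (all genes: 24.6% higher, 18.5% lower), among them Txnrd1 (1.46 ± 0.12, edgeR adjusted p = 7.08e-08), Ugdh (1.23 ± 0.11, edgeR adjusted p = 2.06e-07) and Gsta4 (-2.13 ± 0.09, edgeR adjusted p = 5.47e-11). Nfe2l2, which codes for NRF2 itself, averaged 0.286 ± 0.05 in Igfbp2-high non-cycling cells, against 0.437 ± 0.04 in Igfbp2-low non-cycling cells (SD, n = 3 runs each).

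Of 40 glutathione, thioredoxin and peroxiredoxin genes, all tested, 15 rose and 17 fell in Igfbp2-high non-cycling cells (median -0.06, beside -0.04 for all genes, of which 59.8% were called). Once astrocyte-marker cells were left out, 16 rose and 17 fell (median 0.03, beside -0.07 for all genes, of which 60.6% were called). Txnip, which binds and inhibits thioredoxin, fell by 2.67 ± 0.13 (edgeR adjusted p = 2.45e-11), to 0.0670, 0.0942 and 0.0752, against 0.571, 0.491 and 0.465 in Igfbp2-low cells, and by 3.16 ± 0.14 without those cells (edgeR adjusted p = 2.51e-12). Prdx5, a peroxiredoxin, rose by 1.42 ± 0.06 (edgeR adjusted p = 6.24e-12). Prdx5 averaged 13.2 ± 0.46 in all Igfbp2-high cells and 14.3 ± 0.74 without those cells, against 5.11 ± 0.05 in Igfbp2-low cells (SD, n = 3 runs each). Mgst1, a membrane-bound glutathione transferase and peroxidase, fell by 2.21 ± 0.10 in cycling cells with high Igfbp2 (edgeR adjusted p = 5.15e-11). In cycling against non-cycling Igfbp2-high cells 8 of the 40 rose and 20 fell (median -0.24), where 25.3% of all genes were higher and 25.2% lower (median -0.02). Leaving out astrocyte-marker cells, 6 rose and 17 fell, where 22.4% and 22.3% of all genes did. Glrx2, a mitochondrial glutaredoxin, fell by 1.34 ± 0.09 (edgeR adjusted p = 1.34e-09), and by 1.43 ± 0.09 without those cells (edgeR adjusted p = 4.45e-10).

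Of 28 listed ferroptosis genes 25 were tested, and 15 rose and 6 fell in Igfbp2-high non-cycling cells (median 0.45), where 29.0% of all genes were higher and 30.8% lower (median -0.04). With astrocyte-marker cells left out, 11 rose and 6 fell (median 0.40), where 29.3% of all genes were higher and 31.3% lower (median -0.07). Acsl3, which activates fatty acids for membrane lipids, fell by 2.16 ± 0.11 (edgeR adjusted p = 4.45e-11), and Sat1, which acetylates polyamines, fell by 1.92 ± 0.09 (edgeR adjusted p = 2.73e-11). Without those cells Acsl3 fell by 1.95 ± 0.11 (edgeR adjusted p = 4.04e-11) and Sat1 by 1.84 ± 0.10 (edgeR adjusted p = 5.44e-11). Acsl3 was at 2.59, 2.00 and 1.53 in Igfbp2-high non-cycling cells, against 9.95, 9.91 and 7.94 in Igfbp2-low non-cycling cells. Slc3a2, the heavy chain shared by the cystine-glutamate exchanger and other amino acid carriers, rose by 1.33 ± 0.07 (edgeR adjusted p = 1.39e-10), at 12.6, 8.99 and 8.30 in Igfbp2-high cells, against 5.66, 3.73 and 3.06 in Igfbp2-low cells, and by 1.56 ± 0.08 without those cells (edgeR adjusted p = 1.28e-11). In cycling against non-cycling Igfbp2-high cells Slc3a2 fell by 0.90 ± 0.07 (edgeR adjusted p = 2.49e-08), and by 1.12 ± 0.08 without those cells (edgeR adjusted p = 2.14e-09).

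Of 35 listed selenoprotein genes and their partners 24 were tested, and 7 rose and 7 fell in Igfbp2-high non-cycling cells (median -0.0048 beside -0.04 for all genes, of which 59.8% were called). Once astrocyte-marker cells were left out, 10 rose and 7 fell (median 0.03 beside -0.07 for all genes, of which 60.6% were called). Gpx1, the cytosolic glutathione peroxidase, rose by 1.30 ± 0.08 (edgeR adjusted p = 3.30e-10), to 5.13, 5.35 and 5.85, against 2.18, 2.32 and 2.35 in Igfbp2-low cells, and by 1.38 ± 0.08 without those cells (edgeR adjusted p = 4.91e-11). Sepp1, selenoprotein P, which carries selenium between cells, fell by 1.78 ± 0.08 (edgeR adjusted p = 9.56e-12), and by 1.87 ± 0.09 without those cells (edgeR adjusted p = 4.51e-12). In cycling against non-cycling Igfbp2-high cells 6 rose and 13 fell, and 4 rose and 13 fell without the astrocyte-marker cells. Of all genes 25.3% were higher and 25.2% lower, and 22.4% and 22.3% without those cells. Sepp1 fell there by 1.20 ± 0.09 (edgeR adjusted p = 5.57e-09). 2700094K13Rik, an older symbol of Selenoh, rose by 1.93 ± 0.09 (edgeR adjusted p = 3.11e-11), and Sephs2, which makes the selenium donor for these proteins, rose by 1.29 ± 0.09 (edgeR adjusted p = 4.62e-09).

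In cycling against non-cycling Igfbp2-low cells, where 24.4% of all genes were called (12.8% higher, 11.6% lower), 5 rose and 8 fell of 37 in iron handling, 7 and 5 of 31 NRF2 targets, 8 and 13 of 40 glutathione genes, 7 and 5 of 25 ferroptosis genes and 4 and 9 of 24 selenoprotein genes. Steap1 rose by 2.02 ± 0.25 (edgeR adjusted p = 1.51e-05) and Txnrd1 by 0.99 ± 0.13 (edgeR adjusted p = 2.00e-05). In microglia, where 33.8% of 13250 genes were called (13.9% higher, 19.8% lower), 11 of 36 tested iron handling genes rose and 6 fell, 6 and 7 of 31 NRF2 targets, 8 and 9 of 40 glutathione genes, 5 and 5 of 25 ferroptosis genes and 5 and 5 of 23 selenoprotein genes. The list medians lay between -0.24 and 0.21, beside -0.37 for all genes. Gsto1, a glutathione transferase, rose by 2.52 ± 0.30 (edgeR adjusted p = 3.07e-15) and Gpx1 by 1.88 ± 0.28 (edgeR adjusted p = 2.35e-10), while Acsl3 fell by 3.07 ± 0.33 (edgeR adjusted p = 1.46e-19) and the prion protein gene Prnp by 3.06 ± 0.33 (edgeR adjusted p = 1.78e-18). Lcn2 was at 6.23, 31.4 and 0 in microglia, but averaged 0.270 ± 0.44 without the 3 cells with astrocyte markers.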

How the data were processed

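The authors' deposited table of UMI counts per gene and cell was used for every result. Per the labels' protocols the libraries were 10X Chromium 3′ v2, and per the submitters' processing notes Cell Ranger, Seurat 2.3.4 and mm10 were used. A deposited table of natural log values for 13511 cells served only to tell which cells the authors kept. Their cell filter is not given in the sources used here.

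A cell needed 500 genes or more, and mitochondrial UMIs of 20% or less, which removed 23 cells. No unmapped sample column was found. No doublet caller was run, so doublets were kept. Counts were summed per class and run. After filterByExpr and TMM scaling, edgeR 4.0.16 (R 4.3.3) gave quasi-likelihood tests, with the run as a block and Benjamini-Hochberg adjustment over all genes tested. The 4 Igfbp2 classes shared 1 fit of 12 profiles, and microglia had their own. All 9 members passed the filter in both. The SE is the absolute log2 change divided by the square root of F. The run is a block because the classes of a run come from 1 library. A count of 0 allows 3 UMIs, which is 0.000926 per 10000 in run 1 of Igfbp2-high cycling cells and 0.503 in run 3 of microglia. Such limits and the exact intervals cover counting error only.

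The members, lists, classes and limits were chosen with earlier results of these data known. Named genes were the 9 members and, among the called genes of each list and comparison with at least 20 CPM, those with the largest change, up to 3. Likeness was the Pearson r of log2 CPM over the 12 profiles, after subtracting run means, among genes of at least 50 CPM. Nfe2l2, Cp in non-cycling cells and Lcn2 without astrocyte-marker cells were named after their values were seen. Some genes that these rules name are not reported here. The method was tested on simulated counts. Far fewer genes changed there than were called here, so that test does not cover differences this broad. Alternatives were RLE size factors, UMIs per cell, no low-count filter, DESeq2 1.42.0, no block, each run left out, thinning to 3500 UMIs, the authors' cells, cells with at least 3 Rlbp1 and Glul UMIs, other class limits and, chosen after the data were seen, no astrocyte-marker cells. In the thinned fits the classes were set anew on the thinned counts. Shares of thinned cells that held a UMI used the classes set before thinning.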

Additional observations from a re-analysis of the deposited data

Results flagged for a closer look

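Ftl1, Fth1 and Trf stood out because the Igfbp2 difference itself differed between cycling and non-cycling cells in an interaction test over all genes. The terms were -0.46 for Ftl1, -0.623 for Fth1 and -2.08 for Trf on the log2 scale. For Trf, the 170 astrocyte-marker cells of the Igfbp2-high non-cycling class held 76.7% of its UMIs there, and the term was -0.18 without them (edgeR adjusted p = 0.591). For Ftl1 and Fth1 the terms without those cells were -0.65 (edgeR adjusted p = 0.00108) and -0.53 (edgeR adjusted p = 0.0127). Median UMIs per cell of the classes lay between 9114 and 22231. With cells thinned to 3500 UMIs, the classes were also set anew on the thinned counts, so they held other cells. Igfbp2-high non-cycling cells were then 811, 676 and 628 in runs 1, 2 and 3, against 443, 332 and 349. The terms were then -0.13 for Ftl1 and -0.29 for Fth1, and neither passed (edgeR adjusted p = 0.492 and 0.0989). Depth and the change of cells cannot be told apart here.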

How the results depend on the processing

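Of 732 member values under the alternatives, 571 kept their direction and side of the threshold, 56 lost the call, 52 gained one and 53 reversed. The cause of these changes was not tested, and the thinned values come from classes set anew on the thinned counts. Genes called for Igfbp2 in cycling cells were 6090, against 1039 thinned, 1045 thinned without astrocyte-marker cells, 3823 in the authors' cells and 2524 with cycling set at 4 UMIs, and members called 6, against 2, 2 and, at 4 UMIs, 3 (3 to 5 leaving out a run). For Igfbp2 in non-cycling cells 5 members became 8 without astrocyte-marker cells. For cycling in Igfbp2-high cells 7129 genes became 4398 thinned and 3819 thinned without astrocyte-marker cells. For cycling in Igfbp2-low cells 3445 genes became 6959 per cell, 6870 per cell without astrocyte-marker cells, 2272 with no replicate block, 2159 with Igfbp2 at least 10 against 0, and 1930 to 2815 leaving out a run. The 2 members called there became 6 per cell (with or without astrocyte-marker cells) and at 4 UMIs, 5 thinned (with or without them) and in the authors' cells, 0 with no replicate block and 1 to 3 leaving out a run. For the interaction 1470 genes became 561 with no replicate block, 921 thinned, 927 in the authors' cells, 787 per cell without astrocyte-marker cells and 463 to 1063 leaving out a run, and 3 members became 1, 1, 1 and, thinned without astrocyte-marker cells, 0. For microglia 4477 genes became 1999 thinned and 1722 to 4791 leaving out a run, and 7 members became 4 to 8. The share of all genes called was not set beside each of these member counts. The counts therefore do not say whether members were called more often than other genes. Reversed log2 changes follow. Per cell, where the median of all genes was 0.52 for Igfbp2 in non-cycling cells and 0.58 to 0.59 in the others, Igfbp2 in non-cycling cells gave Fth1 0.045 (Srxn1 0.022 without astrocyte-marker cells), Igfbp2 in cycling cells Ftl1 0.16, Tfrc 0.17 and Hmox1 0.015 (Ftl1 0.16 and Tfrc 0.11), cycling in Igfbp2-high cells Fth1 0.10, Ftl1 0.027, Gpx4 0.38 and Nqo1 0.43 (Fth1 0.22, Gpx4 0.25 and Nqo1 0.91), and cycling in Igfbp2-low cells Ftl1 0.53, Gpx4 0.40, Hmox1 0.13 and Nqo1 0.076 (Ftl1 0.53, Gpx4 0.40, Hmox1 0.15 and Nqo1 0.11). For Gpx4, with cycling in Igfbp2-high and in Igfbp2-low cells, both the fall and the reversed value per cell passed the threshold. In the authors' cells Tfrc was -0.38 for Igfbp2 in non-cycling cells, Nqo1 0.20, Slc40a1 -0.067 and Srxn1 -0.090 for cycling in Igfbp2-high cells, Fth1 -0.010 and Srxn1 -0.038 for cycling in Igfbp2-low cells, and the Trf interaction 0.071. At 4 UMIs Slc40a1 was 8.18 for Igfbp2 in cycling cells, a fitted value against 0 UMIs and no bound, with Fth1 -0.056 and Srxn1 -0.34 for cycling in Igfbp2-low cells. Srxn1 there was -0.0015 with no low-count filter and -0.025 with no replicate block. Thinned, Ftl1 was -0.047 and Gpx4 -0.051 for Igfbp2 in non-cycling cells, Nqo1 0.088, Srxn1 -0.18 and Tfrc -0.11 for cycling in Igfbp2-high cells, and Fth1 -0.36 for cycling in Igfbp2-low cells. Thinned without astrocyte-marker cells, Tfrc was -0.11, Nqo1 0.32, Srxn1 -0.23 and Fth1 -0.35 in the same comparisons. Without those cells only, Tfrc was -0.38, Nqo1 0.28 and Srxn1 -0.056. Leaving out a run gave Gpx4 -0.012 to 0.11 for Igfbp2 in cycling cells, Slc40a1 -0.14 to 0.69 and Srxn1 -0.059 to 0.16 for cycling in Igfbp2-high cells, and Srxn1 -0.053 to 0.14 and Fth1 -0.018 to 0.23 for cycling in Igfbp2-low cells. The authors' cells hold 0 of the microglia, so that alternative gave no value there. Depth limits Slc40a1, Tfrc and Nqo1, with 1277, 1320 and 3060 UMIs in all.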
